A study of Homo sapiens with 8 samples.

Results

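Expression of 10 genes that mark the maturing absorptive cell of the intestine was followed in HT29, a BRAF-mutant human colorectal cancer cell line, with and without the MEK inhibitor selumetinib. The genes were those named CDX1, CDX2, HNF4A, VIL1, KRT20, FABP1, CDH17, ALPI, SI and ANPEP in a table of 38148 genes, and all 10 were found. Cells were left untreated or given selumetinib at 1 µM for 24 h, then fixed with glyoxal, stained inside the cell for cyclin B1 (CCNB1, a cyclin of G2 and mitosis) and sorted into fractions without and with it, here the negative and the positive fraction, before mRNA-seq. Treatment and fraction make 4 groups, each with 2 libraries, and no source used here states whether the 2 came from separate cultures, so p-values measure the spread between these libraries only.

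The titles and descriptions of all 8 samples disagree: where 1 says untreated the other says selumetinib, and likewise for the fraction. Groups here follow the descriptions, which match the column names of the table. CCNB1 mRNA stood at 13.79 and 14.05 (deposited log2 value) in the untreated CCNB1-positive libraries against 11.66 and 12.01 in the untreated CCNB1-negative ones, and at 12.76 and 12.53 against 7.92 and 7.22 under selumetinib. Had the titles been followed, each response to selumetinib would carry the opposite sign and belong to the other fraction.

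Absorptive enterocytes arise from crypt stem cells, leave the cell cycle and build a brush border of packed microvilli that carries digestive hydrolases. The homeobox factors CDX1 and CDX2 and the nuclear receptor HNF4A hold the intestinal programme in place, and HNF1-type factors bind many of the same promoters. MEK passes the signal of mutant BRAF on to ERK, and selumetinib blocks that step.

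RefSeq promoter windows were found for 7 of the 10 genes (9 windows in all), and the 250 bases before each start were searched on both strands for TTTATG, a core bound by CDX factors, GTTAAT, 1 arm of the palindrome bound by HNF1, and CAAAGT, a core of the HNF4 site. TTTATG was found at SI, FABP1 and KRT20. These windows are shown because they hold the letters bound by factors of the same gene group, beside 3 genes that behaved differently under selumetinib. Matches on either strand are in capitals, the build is GRCh38.p14, and all 3 windows lie on the minus strand and are written 5′ to 3′ along it.
SI, chr3:165078497-165078746: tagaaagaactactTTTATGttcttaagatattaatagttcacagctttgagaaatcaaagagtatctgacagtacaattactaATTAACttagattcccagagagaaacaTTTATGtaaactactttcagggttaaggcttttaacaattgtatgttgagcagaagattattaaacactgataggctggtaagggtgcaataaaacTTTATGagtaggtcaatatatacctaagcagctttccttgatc
FABP1, chr2:88128117-88128312: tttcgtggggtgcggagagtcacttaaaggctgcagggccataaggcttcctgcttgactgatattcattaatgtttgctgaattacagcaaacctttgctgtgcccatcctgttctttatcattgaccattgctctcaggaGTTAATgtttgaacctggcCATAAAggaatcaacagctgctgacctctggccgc
KRT20, chr17:40885243-40885492: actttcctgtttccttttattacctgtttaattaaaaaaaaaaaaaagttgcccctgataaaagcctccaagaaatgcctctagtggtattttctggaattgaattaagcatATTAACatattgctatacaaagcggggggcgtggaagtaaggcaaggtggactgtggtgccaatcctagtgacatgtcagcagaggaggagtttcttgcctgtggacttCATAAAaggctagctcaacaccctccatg

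The SI window held TTTATG at 3 places and the FABP1 and KRT20 windows at 1 each, as its complement CATAAA in both. All 3 windows also held GTTAAT or its complement at 1 place. Of all 35116 RefSeq windows of this length, 9.64% held TTTATG, 6.23% held GTTAAT and 10.3% held CAAAGT. The HNF1 letters were also found at HNF4A and ANPEP, and the HNF4 letters at ALPI alone among the 7 genes. The FABP1 sequence stops at 196 bases because the RefSeq start lies inside the gene as the deposited table places it. No motif overlapped another, and a match describes letters only.

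Levels between genes were compared per kilobase of exon in RPM, the reads after the deposited scaling divided by the reads on genes of the largest library and given per 1000000. That scaling rests on the total reads of each library and not on its reads on genes. KRT20, an intermediate filament keratin of the mature upper crypt, stood highest, at 103 RPM per kb in untreated cells of the negative fraction (the mean of 2 libraries, at 94.7 and 112). VIL1, which encodes the microvillus actin-bundling protein villin, followed at 18.2 and HNF4A at 7.78, and these 3 genes and FABP1 kept that order without overlap of libraries in all 4 groups. FABP1, a cytosolic fatty acid carrier, stood at 1.00 RPM per kb, CDX1 at 0.741, CDX2 at 0.660 and CDH17, which encodes the intestinal cadherin LI-cadherin, at 0.627. Within this group the libraries of CDX1 overlapped those of CDX2 and those of CDX2 overlapped those of CDH17.

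The 3 genes of brush border hydrolases lay lowest in all 4 groups. In untreated cells of the negative fraction ANPEP stood at 0.0471 RPM per kb and SI at 0.00429, and ALPI had no read. Only in selumetinib-treated cells of the negative fraction did the libraries of SI overlap those of CDH17, at means of 0.432 and 0.709 RPM per kb.

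**Figure D1:**
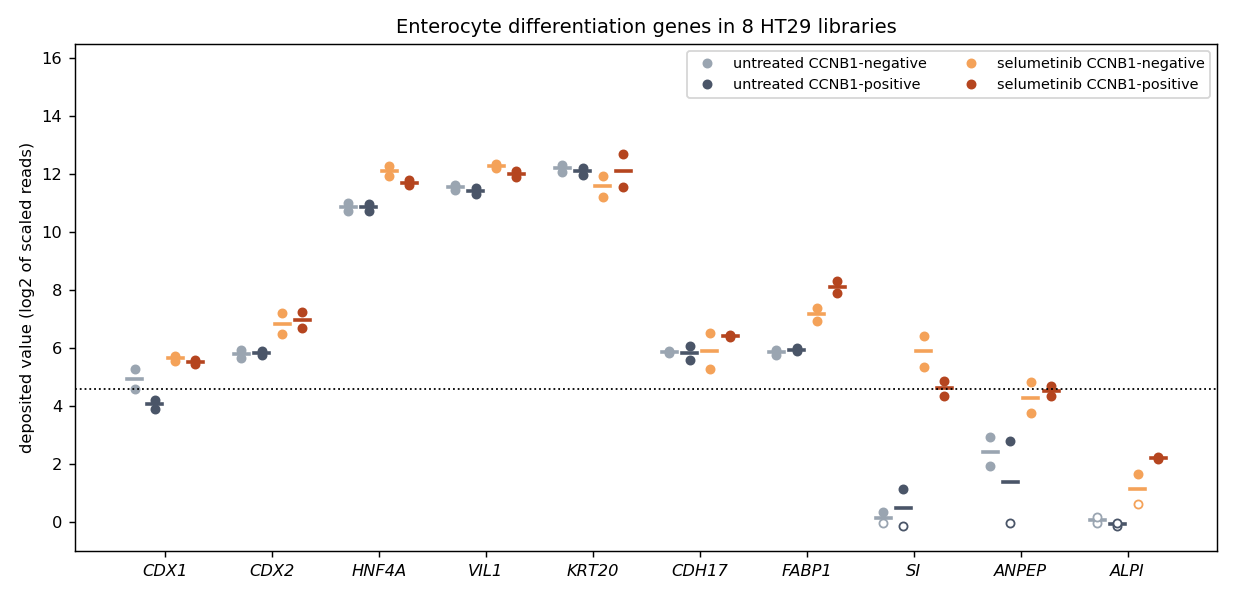
Deposited log2 value (vertical axis) of the 10 genes in each of 8 libraries, coloured by group, with short bars at the mean of the 2 libraries. Open circles mark libraries without a read, which the table places near 0, and the dotted line is the value of 1 RPM (4.58). HNF4A, VIL1 and KRT20 sit above 10, and SI rises from below 2 to above 4 under selumetinib.

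The libraries held 12696860 to 23916160 reads on genes, 12696860 to 19976635 in the treated and 19114877 to 23916160 in the untreated groups, and 3 of the 4 treated libraries were shallower than every untreated one. Genes with at least 1 read numbered 22138 to 24227 in untreated and 25038 to 25352 in treated libraries. Intervals of read ratios and detection limits below cover counting error only and leave out the spread between libraries. In genes with reads enough to compare, chi-square per gene between the 2 libraries of a group averaged 17.3 to 33.5, above counting error alone. The reads also carry no molecular identifiers. All 5 epithelial marker genes (EPCAM, CDH1, KRT8, KRT18 and KRT19) were above 1 RPM on average, and their sum was 10503 to 11534 RPM in untreated and 5057 to 7471 RPM in treated cells of the negative fraction, and 10483 to 10728 against 6560 to 9066 RPM in the positive fraction. Of these 5 genes 1 was called higher and 3 lower with selumetinib in the negative fraction, where 38.2% and 35.8% of all tested genes were. In the positive fraction 1 was higher and 1 lower, where 38.0% and 27.3% were. EPCAM changed by -1.34 and -0.83.

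The first question was how these genes responded to selumetinib within each fraction. The test took the 14219 genes whose log2 values averaged at or above that of 1 RPM, and 7 were of this group (CDX1, CDX2, HNF4A, VIL1, KRT20, FABP1 and CDH17) and the remaining 3 lay below. In the negative fraction 4 of 7 were higher and 0 lower at an adjusted p under 0.05 by limma (Benjamini-Hochberg over all tested genes), where 74.1% of all tested genes were called, 38.2% higher and 35.8% lower. In the positive fraction 5 of 7 were higher and 0 lower, where 65.3% were called, 38.0% higher and 27.3% lower. By library values alone, 5 of the 7 had both treated libraries above both untreated ones and 1 had both below in the negative fraction, where 44.6% and 41.9% of all tested genes did. In the positive fraction 6 of 7 lay above and 0 below, where 48.6% and 37.1% did. HNF4A, VIL1, FABP1 and CDX2 were called higher in both fractions and CDX1 in the positive fraction. CDX1 averaged below 1 RPM in untreated libraries and passed the filter only through the treated ones, and without it 4 of 6 were called higher in each fraction, where 35.5% and 35.0% of the 13401 tested genes with an untreated mean of at least 1 RPM were. In these bulk samples a larger share of cells with an mRNA and more of it per cell cannot be told apart.

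HNF4A, the nuclear receptor, was higher with selumetinib in both fractions. Its log2 values were 11.02 and 10.73 in untreated against 11.94 and 12.30 in treated cells of the negative fraction. For the positive fraction they were 10.99 and 10.75 against 11.64 and 11.79. Every treated library stood above every untreated one. The log2 change was 1.24 ± 0.17 (SE, limma adjusted p = 1.35e-05, 2.37-fold) in the negative and 0.85 ± 0.17 (adjusted p = 0.000592, 1.80-fold) in the positive fraction. The gene lies on the plus strand of chr20:44355700-44434596 and overlaps the antisense genes HNF4A-AS1 and AL117382.2. The kit was directional, but whether counting used the strand is not given in the sources used here, so these reads may include antisense ones.

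VIL1 was also higher in both fractions, by a smaller amount. In the negative fraction its log2 values were 11.64 and 11.46 untreated against 12.36 and 12.21 treated. For the positive fraction the values were 11.52 and 11.33 against 12.11 and 11.90. The groups did not overlap in either fraction. Its log2 change was 0.73 ± 0.15 (limma adjusted p = 0.000536) and 0.58 ± 0.15 (adjusted p = 0.00381), which is 1.66-fold and 1.5-fold. The second call was lost by limma-voom, at 0.24 and an adjusted p of 0.197, and without untreated CCNB1-positive replicate 2, at 0.49 and an adjusted p of 0.0578. The gene (chr2:218419092-218453295, plus strand) overlaps USP37 on the other strand.

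FABP1 showed the largest log2 change of the 7 tested genes in both fractions in the deposited scaling, close to that of HNF4A in the negative fraction, where HNF4A (1.49) and VIL1 (1.03) lay above it after quantile normalization. Its log2 values were 5.76 and 5.95 in untreated and 7.38 and 6.95 in treated cells of the negative fraction. For the positive fraction they were 6.0 and 5.89 against 7.89 and 8.33. All 4 treated libraries lay above all 4 untreated ones, and the treated CCNB1-positive pair lay highest. The log2 change was 1.31 ± 0.27 (limma adjusted p = 0.000537, 2.48-fold) in the negative and 2.17 ± 0.27 (adjusted p = 1.27e-05, 4.5-fold) in the positive fraction. After quantile normalization the first was 0.47 and not called (adjusted p = 0.144) and the second 1.32 and called (adjusted p = 0.00136).

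CDX2 stood at 5.92 and 5.65 in untreated against 7.20 and 6.49 in treated cells of the negative fraction (56 and 40 against 94 and 53 reads). In the positive fraction it stood at 5.91 and 5.78 against 7.26 and 6.70 (60 and 50 against 136 and 66 reads). The groups did not overlap, and treated replicate 1 was the higher library in each fraction. CDX2 had a log2 change of 1.06 ± 0.32 (limma adjusted p = 0.00849) and 1.14 ± 0.32 (adjusted p = 0.00667). After quantile normalization the changes were 0.12 and 0.09 and neither was called. Without selumetinib CCNB1-negative replicate 1 the first was 0.70 (adjusted p = 0.0985), without untreated CCNB1-negative replicate 2 it was 0.92 (adjusted p = 0.0539), and without selumetinib CCNB1-positive replicate 1 the second was 0.86 (adjusted p = 0.0862).

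CDX1, the second caudal-type homeobox factor, was counted by 15 to 43 reads per library. It stood at 4.58 and 5.29 untreated against 5.74 and 5.57 treated in the negative fraction. In the positive fraction it stood at 3.91 and 4.22 against 5.60 and 5.46. The groups did not overlap in either fraction, and the untreated CCNB1-positive libraries were the lowest. CDX1 had a log2 change of 0.72 ± 0.41 in the negative fraction, not called (limma adjusted p = 0.124), and 1.467 ± 0.41 in the positive fraction (adjusted p = 0.00621). The call is conditional on the filter, since CDX1 averaged 4.497 in untreated and 5.59 in treated libraries against 4.58 for 1 RPM. The first change was 0.37 (adjusted p = 0.531) without untreated CCNB1-negative replicate 1 and 1.08 (adjusted p = 0.0799) without replicate 2. After quantile normalization the changes were -0.45 and 0.14, and neither was called.

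KRT20 and CDH17 passed the test in neither fraction. KRT20 stood at 12.08 and 12.32 untreated against 11.96 and 11.21 treated in the negative fraction, and at 11.99 and 12.24 against 12.70 and 11.56 in the positive fraction. The treated CCNB1-negative libraries lay below the untreated ones, while the treated CCNB1-positive libraries lay 1 above and 1 below theirs. KRT20 had a log2 change of -0.62 ± 0.30 (limma adjusted p = 0.0760) and 0.02 ± 0.30 (adjusted p = 0.965). The first was called lower by limma-voom (-0.88, adjusted p = 0.007), with only the compared groups in the fit (-0.62, adjusted p = 0.00556), and without selumetinib CCNB1-negative replicate 1 (-0.99, adjusted p = 0.0230) or either selumetinib CCNB1-positive library (-0.62, adjusted p = 0.0181 and 0.0186). It was -0.25 (adjusted p = 0.542) without selumetinib CCNB1-negative replicate 2 and -0.33 (adjusted p = 0.387) after quantile normalization.

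CDH17 stood at 5.90 and 5.82 untreated against 6.53 and 5.29 treated in the negative fraction, and at 5.58 and 6.09 against 6.44 and 6.38 in the positive fraction. The groups overlapped in the first fraction and not in the second. The log2 change was 0.05 ± 0.39 (limma adjusted p = 0.917; 95% interval -0.78 to 0.88) and 0.57 ± 0.39 (adjusted p = 0.205; -0.26 to 1.41), and it was -1.03 and -0.50 after quantile normalization, the first called lower (adjusted p = 0.0395).

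**Figure D2:**
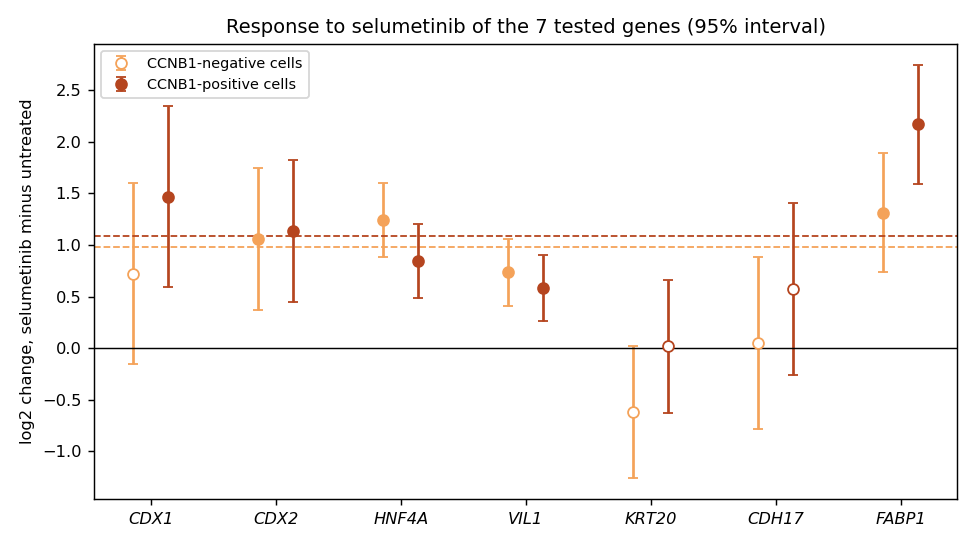
Log2 change with selumetinib (vertical axis) of the 7 tested genes in the negative (orange) and positive (brown) fraction, with 95% intervals from limma. Filled points have an adjusted p under 0.05, and dashed lines mark the median change of genes with a mean of 1 to 8 RPM in the same fraction (0.98 and 1.09). FABP1 lies wholly above its dashed line in the positive fraction and reaches it in the negative fraction. The intervals of CDX1, CDX2 and CDH17 reach theirs or below.

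The response moved with the level of expression across the tested genes, and the genes described here fall on both sides of that trend. Among the 3573 genes with a mean of 1 to 8 RPM, which include CDX1, CDX2, CDH17 and FABP1, the median log2 change was 0.98 in the negative and 1.09 in the positive fraction, and 53.7% and 57.3% were called higher. Among the 6547 genes above 30 RPM, which include HNF4A, VIL1 and KRT20, it was -0.37 and -0.21. CDX2 (1.06 and 1.14) therefore lay near the median of genes of its level, and HNF4A and VIL1 above theirs. Of all tested genes, 818 averaged below 1 RPM in untreated libraries, of which 686 and 707 were called higher. By contrast 93 averaged below it in treated libraries. Quantile normalization, which gives each library the same distribution, set the medians of the low genes to 0.07 and -0.02. The part of the filter, RNA quality, depth or a true shift in this trend was not tested.

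After quantile normalization HNF4A rose by 1.49 and 1.04 and VIL1 by 1.03 and 0.84, each called in both fractions. Quantile normalization left 3 of the 7 genes called in the positive fraction (FABP1, HNF4A and VIL1), where 58.9% of all tested genes were called. It left 3 in the negative fraction, of which 2 were higher (HNF4A and VIL1) and 1 lower (CDH17), where 72.9% were called. Over all tested genes, 58.1% of calls in the positive fraction were higher in the deposited scaling, 47.5% after quantile normalization and 41.0% by limma-voom. In the negative fraction the shares were 51.6%, 47.4% and 43.0%.

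**Figure D3:**
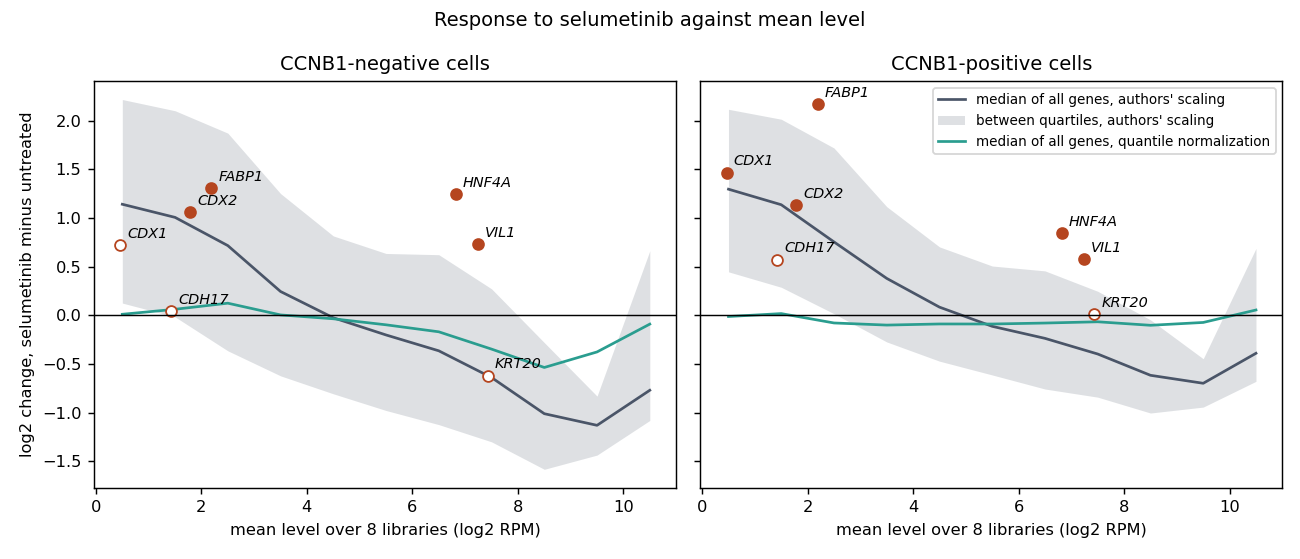
Log2 change with selumetinib (vertical axis) against the mean level over 8 libraries (horizontal axis, log2 RPM) in the negative (left) and positive (right) fraction. Lines are medians of all tested genes in bins of 1 log2 unit, in the deposited scaling (grey, with genes between the quartiles shaded) and after quantile normalization (green), and points are the 7 genes in the deposited scaling, filled where called. CDX1, CDX2 and CDH17 lie within the shaded band, and HNF4A and VIL1 lie above it. FABP1 lies within it in the negative fraction and above it in the positive fraction.

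The genes of 3 brush border hydrolases were too low for the test and are given as whole reads recovered from the table. SI, which encodes sucrase-isomaltase and splits sucrose and starch products, had 0 and 1 read in untreated and 55 and 24 in treated cells of the negative fraction. In the positive fraction it had 0 and 2 reads against 26 and 13. All 4 treated libraries stood above all 4 untreated ones. Relative to the deposited scaling the ratio of summed reads was 110.5 (95% exact interval 19.3 to 4420) in the negative and 24.5 (6.34 to 209) in the positive fraction. Between the treated fractions the ratio of CCNB1-positive to CCNB1-negative was 0.398 (0.264 to 0.591). With each library's own reads on genes as depth these ratios were 121.6, 26.3 and 0.386. Between the treated fractions SI was not called by limma without a filter on low values. There the log2 difference was -1.28 (95% interval -3.35 to 0.80, limma adjusted p = 0.455).

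ANPEP, which encodes the membrane peptidase aminopeptidase N, had 7 and 3 reads against 18 and 8 in the negative fraction and 7 and 0 against 23 and 13 in the positive fraction. The treated libraries lay above the untreated ones in both fractions. The ratio of summed reads was 3.64 (1.70 to 8.45) and 6.46 (2.83 to 17.2). ALPI, which encodes intestinal alkaline phosphatase, had no read in any untreated library, which allows up to 0.0731 RPM in the negative and 0.0656 RPM in the positive group. It had 2 and 0 reads in treated cells of the negative fraction, and 4 and 3 in treated cells of the positive fraction. The latter is 2.93-fold the limit of 3 reads over the untreated group, without the counting error of the treated reads.

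ALPI shares most of its sequence with the placental-type genes ALPG and ALPP, so reads between them are uncertain. ALPG had 3, 1, 0 and 0 reads in the untreated and 30, 6, 79 and 39 in the treated libraries, and ALPP had 0 to 1 against 1 to 10. The more distant ALPL, of liver, bone and kidney, had 1 to 6 reads untreated and 8 to 14 treated. In a fit without a filter on low values limma called SI higher in both fractions (log2 change 5.74 and 4.12, adjusted p = 9.76e-05 and 0.00323), where 23.2% and 19.8% of all 38148 genes were called higher. In that fit ANPEP and ALPI were called in the positive fraction (3.13 and 2.29) and not in the negative fraction (1.87 and 1.06). The table places a gene without a read higher in a shallower library, which 3 of the 4 treated libraries were.

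**Figure D4:**
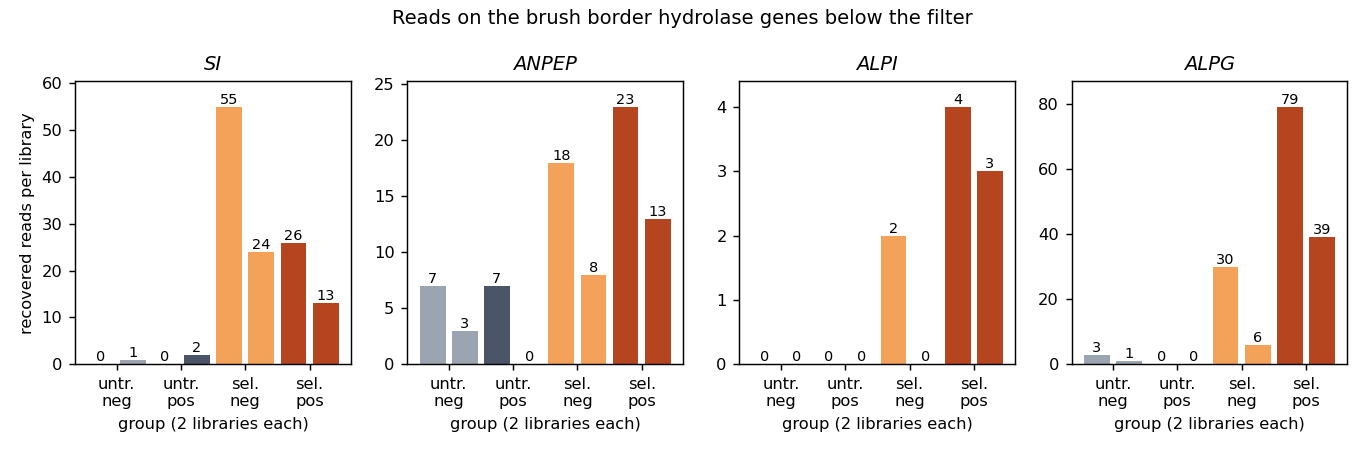
Whole reads recovered per library (vertical axis, a separate scale for each gene) for SI, ANPEP, ALPI and the paralog ALPG, with the 2 libraries of each group side by side. SI goes from at most 2 reads in untreated to 13 to 55 in treated libraries, and ALPI from none to at most 4.

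The second question was whether the fractions differed. In untreated cells 0 of the 7 genes differed between the positive and the negative fraction by limma, against 2.87% of all tested genes (1.36% higher and 1.51% lower), with 0 at an unadjusted p under 0.05 and 0 by limma-voom. CDX1 had the largest difference, -0.87 ± 0.41 (adjusted p = 0.378; -1.22 to -0.51 when 1 library was left out), and its positive libraries (3.91 and 4.22) both lay below its negative ones (4.58 and 5.29). The other 6 differed by -0.12 to 0.09 on the log2 scale and their libraries overlapped. How many of all tested genes had no overlap of libraries between fractions was not counted, so such a separation is a description only.

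Under selumetinib 1 of 7 genes differed between the fractions in the fit without pairs of fractions, where 21.6% of all tested genes did (13.8% higher and 7.87% lower). FABP1 was higher in the positive fraction, with 7.89 and 8.33 against 7.38 and 6.95, a log2 difference of 0.95 ± 0.27 (limma adjusted p = 0.0234, 1.93-fold). The call was lost without selumetinib CCNB1-negative replicate 2 (0.74, adjusted p = 0.183), CCNB1-positive replicate 1 (1.17, adjusted p = 0.0517) or CCNB1-positive replicate 2 (0.73, adjusted p = 0.192). HNF4A stood lower in the positive fraction in both libraries (11.64 and 11.79 against 11.94 and 12.30), with a difference of -0.41 ± 0.17 that did not pass (adjusted p = 0.0964) and passed after quantile normalization (-0.49, adjusted p = 0.0440). Without selumetinib CCNB1-negative replicate 2 it was -0.23 (adjusted p = 0.477). VIL1 likewise had no overlap (12.11 and 11.90 against 12.36 and 12.21), at -0.28 ± 0.15 (adjusted p = 0.200). Here too the separation of libraries was not counted over all tested genes. With pairs of same-numbered fractions as a block, limma called 4 of the 7. FABP1 and KRT20 (0.55, adjusted p = 0.000378) were higher, and HNF4A (adjusted p = 0.00187) and VIL1 (adjusted p = 0.0180) lower. That block called 3845 of all tested genes higher and 2826 lower, against 1958 and 1119 without it. Without selumetinib CCNB1-negative replicate 1, CDH17 (1.12, adjusted p = 0.0414) and HNF4A (-0.59, adjusted p = 0.0283) were called between the treated fractions, and without selumetinib CCNB1-positive replicate 2, KRT20 was (1.11, adjusted p = 0.0153).

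The difference of the responses was tested directly. In the fit without pairs of fractions none of the 7 genes passed, where 5.33% of all tested genes did (4.99% higher and 0.345% lower), and limma-voom also called 0. FABP1 alone had an unadjusted p under 0.05 (0.0406), with a difference of responses of 0.86 ± 0.38 (limma adjusted p = 0.225), which did not pass. For CDX1 the difference was 0.74 ± 0.58 and for HNF4A -0.40 ± 0.24, with 95% intervals of -0.50 to 1.99 and -0.91 to 0.11. With pairs of fractions as a block, limma called KRT20 (0.63, adjusted p = 0.00403) and HNF4A (-0.40, adjusted p = 0.0332). That block called 2739 of all tested genes higher and 1111 lower, against 709 and 49 without it.

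Other genes of the same cell programme were then counted from lists of related function, with the same tests. The counts are read against all tested genes, of which 38.2% were higher and 35.8% lower in the negative and 38.0% and 27.3% in the positive fraction. ESPN, ENPEP, CD36 and GUCA2A averaged 3.81 to 4.07 in untreated libraries, under the 4.58 of 1 RPM, and passed the filter only through the treated libraries, as 818 of all tested genes did. Of 16 genes of brush border structure 14 were tested, and 10 were higher and 1 lower in the negative fraction, 9 and 1 in the positive fraction. Among the 13 with an untreated mean of at least 1 RPM, 9 and 8 were higher. The median log2 change was 1.24 and 0.92, against 0.05 and 0.17 over all tested genes. PDZK1, a scaffold for apical transporters, changed by 3.76 and 3.14, and ESPN, the actin bundler espin, by 3.71 and 2.78. NHERF1, listed under its older symbol SLC9A3R1, an apical scaffold that binds ezrin, changed by -0.91 and -0.58. The second value of NHERF1 was not called after quantile normalization (-0.29, adjusted p = 0.171).

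Of 17 further intestinal transcription factor genes 10 were tested, with 9 higher and 1 lower in the negative fraction and 7 and 1 in the positive fraction, and 8 and 6 were higher among the 9 with an untreated mean of at least 1 RPM. The median log2 change was 1.13 and 0.85. HNF4G, the close relative of HNF4A, changed by 2.07 and 1.73. VDR, the vitamin D receptor, changed by -1.16 and -0.84.

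The lists of hydrolases, transporters and lipid handling were largely below 1 RPM, with 3 of 16, 5 of 17 and 6 of 14 genes tested. Among the hydrolases 1 was higher and 1 lower in each fraction, namely ENPEP, glutamyl aminopeptidase, at 3.68 and 3.18 and GGT1, which cleaves glutathione, at -1.471 and -0.81. Among the transporters 1 was higher in each fraction and 4 and 3 were lower. SLC3A1, a subunit of the cystine and dibasic amino acid carrier, changed by 4.35 and 4.05, the efflux pump ABCG2 by -2.92 and -2.05, and SLC9A3, the apical sodium-proton exchanger, by -1.41 and -0.94. The median of the tested transporters was -1.36 and -0.86.

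Among the lipid handling genes 2 were higher and 4 lower in both fractions, with a median of -0.63 and -0.61. CD36, a fatty acid translocase, changed by 2.52 and 1.90, and DGAT1, which makes triglyceride, by 0.39 and 0.40. SCARB1, a lipoprotein receptor, changed by -1.67 and -1.41 and SLC27A4, a fatty acid transport protein, by -0.70 and -0.77. The CD36 call in the positive fraction was lost after quantile normalization (0.55, adjusted p = 0.273), and both DGAT1 calls by limma-voom (0.14 and 0.05, adjusted p = 0.463 and 0.782).

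Of 18 colonocyte genes 8 were tested, 5 higher and 2 lower in the negative fraction and 4 and 2 in the positive fraction, and 3 and 2 were higher among the 6 with an untreated mean of at least 1 RPM. GUCA2A, which encodes guanylin, changed by 3.63 and 4.18 and PRAP1, a secreted proline-rich acidic protein, by 2.87 and 2.89. The adhesion molecule CEACAM1 changed by -0.68 and -1.42, and the carbonic anhydrase CA2 by -0.48 and -0.56. The median was 0.96 and 0.74.

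The 4 tested simple epithelial keratins beside KRT20 had 1 higher and 3 lower in the negative and 1 higher and 0 lower in the positive fraction. KRT19 was the higher one, at 0.82 and 0.77, and its second call was lost by limma-voom (0.41, adjusted p = 0.129). By limma-voom 2 of the 4 were lower in the positive fraction, and after quantile normalization 3 were. Across the lists 19 of the 23 genes chosen by the rule kept their direction and their call in both fractions under quantile normalization and limma-voom. The rule took genes already called the same way in both fractions, with the largest changes, from the same libraries. The share over all genes called in both fractions was not counted, so this count is a description only.

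Of 10 ERK target genes, 9 were lower and 1 higher in each fraction in the libraries described as treated. Of all tested genes 35.8% were lower in the negative and 27.3% in the positive fraction. This list too was chosen with earlier results of these data known, so it is no independent check of the labels. ETV4 and ETV5, transcription factors induced by ERK, changed by -3.10 and -2.34 and by -2.95 and -2.02. EGR1, an immediate early gene, was the exception at 1.17 and 1.58. In the fit without pairs of fractions no gene of these lists had a called difference between the responses of the fractions. Of all tested genes 5.33% had one in that fit, so few were to be found in lists of this size.

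**Figure D5:**
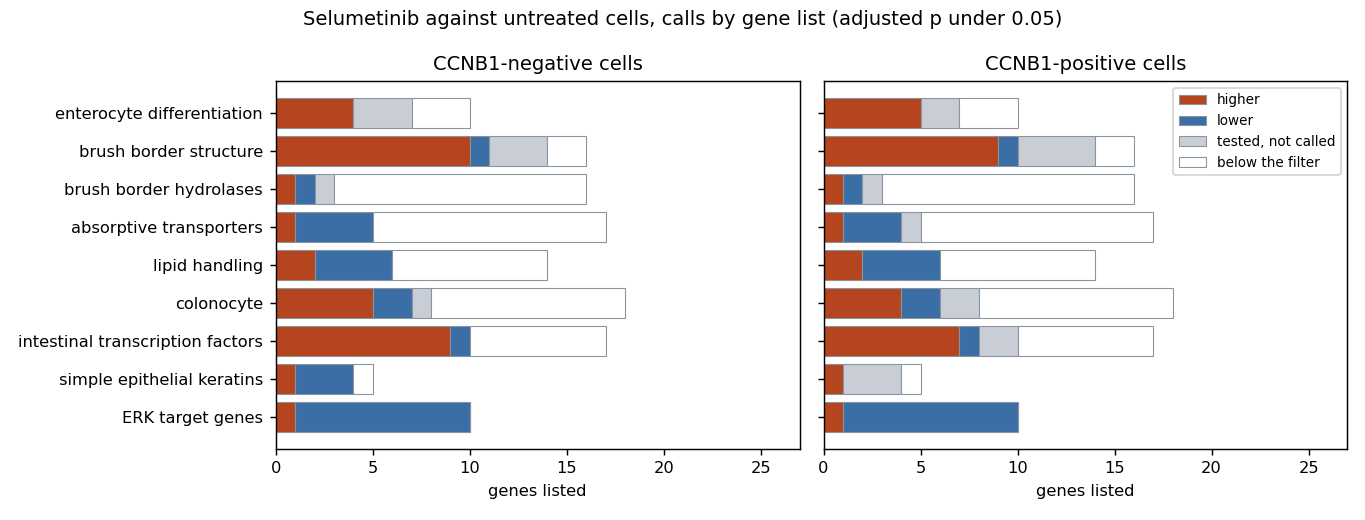
Number of genes (horizontal axis) in each list called higher or lower with selumetinib, tested without a call, or below the filter of 1 RPM, in the negative (left) and positive (right) fraction. Brush border structure and intestinal transcription factors hold mostly higher calls, transporters and ERK targets mostly lower ones, and most hydrolases were below the filter.

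Markers of other intestinal cell types were summed and their calls counted. These counts are read against all tested genes, of which 38.2% were higher and 35.8% lower in the negative fraction. In the positive fraction the shares were 38.0% and 27.3%. The summed level of 6 goblet cell markers was 67.0 to 67.4 RPM in untreated and 171 to 185 RPM in treated cells of the negative fraction, and 50.2 to 52.2 against 90.0 to 98.6 RPM in the positive fraction. Of the 5 tested, 2 were higher and 1 lower in the negative and 3 higher and 2 lower in the positive fraction, TFF3 changing by 2.70 and 2.82 and MUC2 by -1.76 and -1.93. In treated cells of the negative fraction TFF3 was the highest of the 6, at up to 107 RPM. The 5 tuft cell markers summed to 2.26 to 2.49 against 17.8 to 18.2 RPM, and to 1.099 to 2.13 against 9.22 to 11.01 RPM. Of the 3 tested, 3 were higher in the negative and 2 in the positive fraction. The 6 enteroendocrine markers summed to 1.77 to 1.79 against 7.87 to 10.04 RPM and to 0.711 to 0.870 against 6.26 to 8.43 RPM, with at most 1 read of CHGA or CHGB in any library. The 2 tested were higher in each fraction. All tested tuft and enteroendocrine markers averaged below 1 RPM in untreated libraries and passed the filter only through the treated ones. Of the 818 such genes among all tested, 686 and 707 were called higher.

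The 6 stem cell markers summed to 195 to 226 against 420 to 443 RPM and to 184 to 220 against 276 to 311 RPM, of which RNF43 made up most. Of the 4 tested, 2 were higher and 1 lower in the negative and 3 higher and 1 lower in the positive fraction, EPHB2 changing by 1.95 and 1.84 and LGR5 by -1.21 and -1.01. Of the 3 Paneth cell markers LYZ fell by 1.35 and 0.73 on the log2 scale and DEFA5 had no read in any library. The leukocyte sum of 4 markers was LYZ in all but at most 0.722 RPM. The hepatocyte sum of 3 was 26.0 to 33.0 RPM untreated and 43.1 to 60.3 RPM treated. That sum was nearly all APOH (0.84 and 0.70), since ALB had at most 1 read and TF at most 7 in any library. The 5 mesenchymal or endothelial markers summed to 1.63 to 1.86 against 2.91 to 3.41 RPM and to 2.05 to 2.06 against 5.14 to 6.63 RPM, and the 1 tested, COL1A1, changed by 1.81 and 2.19, both called, from an untreated mean under 1 RPM. The part of other cell states in the values of the 10 genes was not tested.

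For each tested gene the gene of nearest pattern was sought among 12289 others, by the root mean square difference of centred log2 values over the 8 libraries. HNF4A lay nearest to CASK (0.05), VIL1 to NDST1 (0.06) and CDX2 to AXIN2 (0.07). CDX1 lay nearest to TMEM202-AS1 (0.13), KRT20 to P2RX5-TAX1BP3 (0.13), CDH17 to ZG16B (0.15) and FABP1, with the widest difference, to TNNC1 (0.24). The libraries share the treatment, the sort and the depth differences, so a near pattern is a description only.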

How the data were processed

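Per the submitters' notes and the methods, adapters were removed by Trim Galore 0.5.0, HISAT2 2.1.0 aligned to GRCh38, and SeqMonk quantified genes relative to the total read count. The authors deposited 1 table of log2 values for 8 libraries. Each value is the log2 of reads scaled to the largest library, and a gene without a read stands at the log2 of 0.9 reads plus a library constant. The annotation release is not given in the sources used here. Labels and methods differ on the growth medium. All 8 value columns were used and 0 were set aside.

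Whole reads were recovered for 100% of values (tolerance 0.01), and depth was 12696860 to 23916160 reads on genes. Differences were tested with limma 3.58.1 (trend) in R 4.3.3 on the deposited log2 values, with 1 coefficient for each of 4 groups, over 14219 genes averaging 1 RPM or more on the log2 scale, with Benjamini-Hochberg adjustment and a threshold of 0.05. Fold changes are on this log2 scale. The fit was also run on simulated reads in which few genes changed, and only in 1 group. Here 74.1% of tested genes were called in the negative fraction, so that run does not show how the fit behaves on these data. Ratios of reads use exact binomial intervals. Alternatives changed the filter, scaling, model, threshold and libraries used, and the filter on linear means and the reads on genes as depth were chosen after seeing the data. Exon lengths are from GENCODE and promoter windows from RefSeq.

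The 10 genes and all lists were chosen with earlier results of these data known, so no list is independent evidence. Of each list the text names up to 2 genes that rose most and 2 that fell most in both fractions (1 such gene is not reported here), and of each tested gene its nearest pattern. Marker genes were named after their values were seen.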

Additional observations from a re-analysis of the deposited data

How the results depend on the processing

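In the negative fraction 4 of the 10 genes were called with selumetinib, 2 with a filter of 10 RPM, and 3 to 5 when 1 library was left out. In the positive fraction 5 were called, 8 without a filter, 2 with a filter of 10 RPM, 3 after quantile normalization, 3 with 2-fold also required, and 4 to 5 when 1 library was left out. Only 3 of the genes have a mean of 10 RPM. The counts above are out of 7 tested genes, out of 10 without a filter and out of 3 with a filter of 10 RPM. Of all tested genes 74.1% were called in the negative and 65.3% in the positive fraction, and 72.9% and 58.9% after quantile normalization. Without a filter 19.8% of 38148 genes were called higher in the positive fraction. With a filter of 10 RPM, 3285 of 10119 were higher and 4508 lower in the negative, 3107 and 3598 in the positive fraction. Between treated fractions 1 was called, 0 with a filter of 10 RPM, 2 after quantile normalization, 0 at an adjusted p under 0.01, 0 with 2-fold required, and 0 to 3 when 1 library was left out. Between untreated fractions 0 were called under every alternative run (0 to 0 when 1 library was left out). For the difference of responses 0 were called, also 0 to 0 when 1 library was left out. Apart from the filters, the cause of these changes was not tested. In the main fit 21.6% of all tested genes were called between treated fractions, 2.87% between untreated fractions and 5.33% for the difference of responses.

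Replicate numbers are shared by the groups. Deviations of same-numbered libraries correlated at 0.35 between untreated fractions, 0.43 between treated fractions and -0.09 to 0.08 across treatments. No source used here states whether same-numbered fractions came from the same culture. The main fit therefore took no pairs, and pairs of fractions were run as an alternative. A block on the replicate number changed no count for the 10 genes. A block on pairs of fractions gave 4 calls between treated fractions (FABP1 0.95 and KRT20 0.55 higher, HNF4A -0.41 and VIL1 -0.28 lower). There all tested genes went from 1958 higher and 1119 lower to 3845 and 2826. For the difference of responses the block gave 2 calls (KRT20 0.63, HNF4A -0.40), where all tested genes went from 709 higher and 49 lower to 2739 and 1111.

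No called change reversed. Among changes not called, quantile normalization reversed CDX1 in the negative fraction (-0.45) and between treated fractions (0.032), CDX2 for the difference of responses (-0.038), and CDH17 with selumetinib (-1.03 and -0.50) and between untreated fractions (0.17). By limma-voom HNF4A (0.10), KRT20 (0.027) and CDH17 (0.065) reversed between untreated fractions, KRT20 with selumetinib in the positive fraction (-0.34) and CDH17 in the negative fraction (-0.18).

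When 1 library was left out, differences between untreated fractions ranged from -0.082 to 0.19 for CDX2, -0.15 to 0.13 for HNF4A, -0.21 to 0.034 for KRT20, -0.0044 to 0.18 for FABP1 and -0.28 to 0.22 for CDH17. Between treated fractions they ranged from -0.23 to 0.49 for CDX2, -0.023 to 1.11 for KRT20 and -0.12 to 1.12 for CDH17. The difference of responses ranged from -0.28 to 0.44 for CDX2 and -0.10 to 1.15 for CDH17. With selumetinib KRT20 ranged from -0.55 to 0.58 in the positive fraction and CDH17 from -0.58 to 0.67 in the negative fraction. Where a group kept 1 library, that library was assumed to vary like the others. With 2 libraries a group and 15 to 43 reads on CDX1, its standard error of 0.41 on the log2 scale limits what could be detected in that gene.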
